A study of Arabidopsis thaliana with 16 samples.

Results

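The expression of 44 nuclear genes was followed that encode chlorophyll-binding antenna proteins, photosystem subunits and Rubisco with its activase, out of 34262 genes listed in the count tables. They were listed by locus from gene family names. No measured value is in the rule, but the list was drawn up with earlier results of these data known. It holds 8 genes of the major photosystem II antenna (LHCB1, LHCB2 and LHCB3) and 5 of the minor antenna (LHCB4, LHCB5 and LHCB6). There are 4 of the photosystem I antenna (LHCA), 12 of photosystem I (PSA), 10 of photosystem II (PSB), and 4 RBCS genes together with RCA. The families are not complete: LHCB2.3, LHCB7, LHCA5, LHCA6, PSBP2, PSBTN, PSB27 and PSB28 are outside the set and were counted apart. RNA was measured by poly(A)-selected sequencing, in single reads of 50 bases, of rosette leaves of 5-week-old Arabidopsis thaliana of the Col-0 ecotype. The comparison asked how jasmonic acid (JA), a hormone of wounding and herbivore defence, given to seedlings at 2 weeks (here the history) bears on leaves 4 h after a second spray at 5 weeks (the challenge).

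The JA_JA plants received 1 mM JA as seedlings and 0.1 mM JA at 5 weeks. The JA_W plants had the seedling JA and then the water control, the W_JA plants had water first and 0.1 mM JA at 5 weeks, and the W_W plants had the water control both times. All 4 groups share the ecotype, Silwet as a wetting agent at 0.02% in every spray, and ethanol, which the water controls carried at the amount of the JA solutions. Each group holds 4 replicates, which the labels call biological. A replicate is a pool of 8 leaves taken from 2 plants, so differences between the plants of a pool are not seen. Nothing else in the labels separates the groups, so any other difference that went along with the seedling spray cannot be told apart from it.

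Light-harvesting complexes are membrane proteins that hold chlorophyll and pass excitation energy to the photosystems. Photosystem II splits water, photosystem I reduces ferredoxin, and Rubisco, whose small subunits are encoded by RBCS genes, fixes carbon dioxide with the energy they supply. In leaves these transcripts are among the most abundant of the nucleus, and JA is known as a hormone that lowers photosynthesis transcripts while defence genes are turned on.

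Counted reads per library ran from 32190193 to 34319939. The 44 genes together took 16.6% ± 1.3 in JA_JA, 16.7% ± 0.915 in JA_W, 13.3% ± 1.83 in W_JA and 14.3% ± 1.86 in W_W of them (mean ± SD, n = 4 each). Levels are given in CPM, reads scaled to a common depth by the TMM method, and the scaling factors were 1.03 to 1.14 in W_W against 0.888 to 1.06 in the other 3 groups. Of the 44 genes, 43 passed the filter on low counts and were tested among 19224 genes, and a gene is said to have risen or fallen only where the edgeR quasi-likelihood test gave an adjusted p (Benjamini-Hochberg) below 0.05. JA_W replicate 1, with 15.3% of its reads from the 44 genes, stood below the other JA_W libraries, and W_W replicate 4, with 17.0%, above the other W_W libraries, which lay at 13.2% to 13.6%. The challenge acted as labelled on 3 JA markers: it raised the storage protein gene VSP2 by 5.88 ± 0.27 and 9.54 ± 0.32 (log2 ± SE, JA history and water history), the JA synthesis gene LOX2 by 2.70 ± 0.18 and 3.28 ± 0.18, and the JA signalling repressor gene JAZ10 by 4.53 ± 0.35 and 4.56 ± 0.34. These markers also differed with history without challenge, where 2 of 3 rose, beside 33.8% of all genes. Their log2 changes ran from -0.35 to 5.09, the highest that of VSP2. Under challenge 1 of 3 rose with history, beside 18.9% of all genes, at changes of -0.38 to 1.44, the highest again that of VSP2. The sums of the 3 markers were 3615 to 4399 CPM in JA_W against 1398 to 2657 CPM in W_W.

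LHCB1.5 (AT2G34420), an LHCB1 copy, was listed at 0 reads in all 16 libraries and is the gene that was not tested. In the RefSeq annotation all 1045 of its exon bases lie inside an exon of AT2G08665, an antisense noncoding RNA that also had 0 reads, although 82.7% of its 50-base windows occur nowhere else in the genome. Whether the counting was done by strand is not given in the sources used here, and the cause of the zeros was not tested. The other overlaps above 50% of exon bases were those of PSAG (61.4%) and PSAH1 (53.3%), whose counts are therefore less certain.

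The mean share of counted reads of each of the 6 complexes was higher in JA_JA than in W_JA and higher in JA_W than in W_W. These shares are of library totals, without TMM scaling, and no test was made on them. Rubisco and its activase took 3.2% ± 0.276 in JA_JA, 3.74% ± 0.242 in JA_W, 2.58% ± 0.339 in W_JA and 2.67% ± 0.327 in W_W. The JA_W libraries, at 3.40% to 3.92%, did not overlap the W_W libraries, at 2.26% to 3.04%, while JA_JA (2.91% to 3.46%) overlapped W_JA (2.2% to 2.92%) slightly. The major photosystem II antenna took 3.94% ± 0.350 in JA_JA, 3.54% ± 0.253 in JA_W, 3.01% ± 0.460 in W_JA and 3.21% ± 0.525 in W_W. Photosystem II subunits took 2.82% ± 0.212 in JA_JA, 2.91% ± 0.133 in JA_W, 2.27% ± 0.306 in W_JA and 2.43% ± 0.314 in W_W, and photosystem I subunits took 2.75% ± 0.161 in JA_JA, 2.67% ± 0.0742 in JA_W, 2.38% ± 0.360 in W_JA and 2.55% ± 0.290 in W_W. The minor antenna took 1.67% ± 0.166 in JA_JA, 1.69% ± 0.0905 in JA_W, 1.3% ± 0.271 in W_JA and 1.47% ± 0.240 in W_W, and the photosystem I antenna took 2.22% ± 0.178 in JA_JA, 2.17% ± 0.152 in JA_W, 1.77% ± 0.262 in W_JA and 1.94% ± 0.278 in W_W. For these 5 complexes the range of JA_W overlapped that of W_W, of which replicate 4 was the highest, and the range of JA_JA overlapped that of W_JA.

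**Figure D1:**
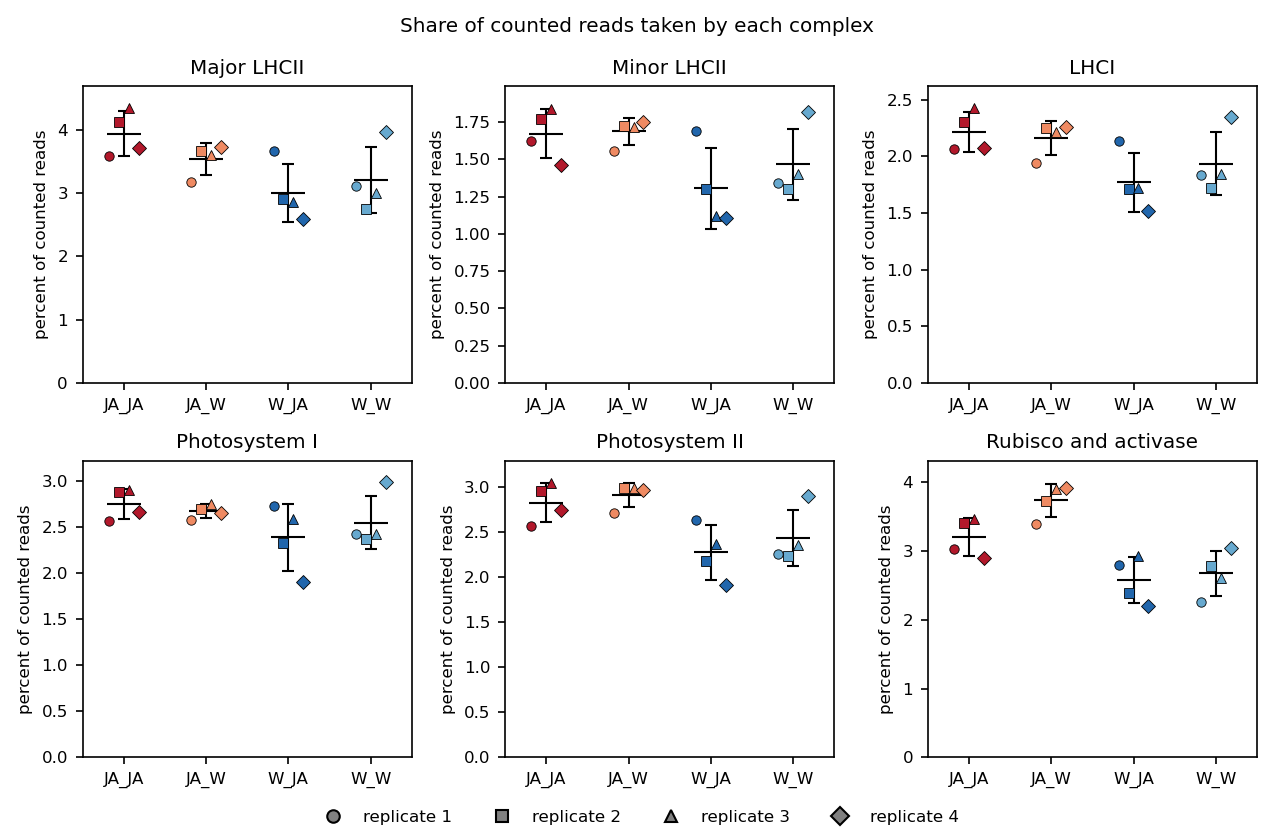
Share of counted reads (percent) taken by the summed genes of each complex, one panel per complex, for JA_JA, JA_W, W_JA and W_W. Points are libraries with a marker per replicate, and bars give the mean ± SD (n = 4). Rubisco with its activase is highest in JA_W (3.74%) and lowest in W_JA (2.58%), and W_W replicate 4 lies above the other W_W libraries in every panel.

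JA history without a challenge was followed by higher transcript levels of all 5 Rubisco genes, of 5 of 10 photosystem II genes, 3 of 12 photosystem I genes, 2 of 7 major antenna genes and 1 of 5 minor antenna genes (JA_W against W_W). None of the 4 LHCA genes of the set passed the test. Only 1 of the 43 genes fell, the antenna gene LHCB1.4, by 1.56-fold. The largest rises were 2.6-fold for RBCS1B and 2.43-fold for PSBS, and the median log2 change over the 43 genes was 0.32, against 0.05 over all genes tested.

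This was the widest comparison of the experiment: 64.9% of all genes tested passed, 33.8% as higher and 31.1% as lower in JA_W. Of the 43 genes, 37.2% rose and 2.33% fell, so the share that rose was close to that of all genes and is no result about this gene set. Without overlap between groups were 7 genes that were higher and 1 that was lower in JA_W, where the shares over all genes were 30.7% and 28.7%. The count depended on W_W replicate 4: without that library 32 genes rose and 1 fell, and all 17 calls made with every library were among them. Without W_W replicate 4 and JA_W replicate 1 together, a choice made after their levels were seen, 31 rose and 0 fell.

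Under challenge, JA history was followed by 19 rises and 0 falls (JA_JA against W_JA), at 18.9% higher and 21.2% lower over all genes (40.1% in either direction). The 43 genes gave 44.2% higher, and an unadjusted p below 0.05 as lower was reached by 0 of them, as DESeq2 also called 0 lower. Without overlap were 9 genes that were higher in JA_JA, at shares over all genes of 14.3% higher and 18.4% lower. The rises were 4 of 7 major antenna genes, 1 of 5 minor antenna genes, 2 of 4 LHCA genes, 5 of 12 photosystem I genes, 5 of 10 photosystem II genes and 2 of 5 Rubisco genes. No library is shared between this comparison and JA_W against W_W, and both come from the same fit. The genes that rose in both numbered 12, which is 75.0% of those that rose without challenge and 63.2% of those that rose under it: LHCB1.2, LHCB3, LHCB5, PSAH1, PSAH2, PSAN, PSBP1, PSBQ1, PSBQ2, PSBS, RBCS1A and RBCS3B. The share of all genes that rose in both was not counted, so this overlap is not read as a result about the gene set. The median log2 change was 0.43 over the 43 genes and 0.01 over all genes tested. Leaving out 1 library at a time gave 9 rises (without W_JA replicate 4) to 33 (without W_JA replicate 1), with 11 without JA_JA replicate 3 and 12 without JA_JA replicate 2. DESeq2 gave 30 and upper-quartile scaling 32, each of which held the 19.

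Markers of other states and tissues were counted as well, beside 33.8% of all genes higher and 31.1% lower without challenge, and 18.9% higher and 21.2% lower under it. Of the senescence markers tested, SAG13 and NYE1 both fell without challenge (-3.01 ± 0.60 and -0.94 ± 0.14) and under it (-3.54 ± 0.62 and -0.52 ± 0.14), and SAG12 had 0 reads in every library. The sums of that list were 31.7 to 59.7 CPM in JA_JA, 26.3 to 70.8 CPM in JA_W, 111 to 337 CPM in W_JA and 177 to 246 CPM in W_W. Epidermis markers passed as higher in 2 of 3 cases without challenge and 1 of 3 under it, at sums of 123 to 162 CPM in JA_JA, 192 to 283 CPM in JA_W, 98.8 to 157 CPM in W_JA and 143 to 217 CPM in W_W, and dividing-cell markers in 1 of 3 and 2 of 3, at 3.26 to 5.94 CPM in JA_JA, 4.15 to 5.97 CPM in JA_W, 2.33 to 2.81 CPM in W_JA and 2.12 to 3.84 CPM in W_W. Markers of green leaf cells were the photorespiration genes GOX1, SHM1 and AGT1 and the carbonic anhydrase gene CA1. All 4 rose without challenge, and 2 of 4 rose under it. Guard cell markers passed as higher in 1 of 4 cases without challenge, and under it 1 of 4 was higher (MYB60, 0.54 ± 0.17) and 1 lower (KAT1, -0.75 ± 0.17), at sums of 39.0 to 65.8 CPM in JA_JA, 46.0 to 52.2 CPM in JA_W, 51.8 to 60.7 CPM in W_JA and 29.2 to 43.6 CPM in W_W, and the sums of phloem companion cell markers were 459 to 755 CPM in JA_JA, 489 to 574 CPM in JA_W, 498 to 595 CPM in W_JA and 399 to 589 CPM in W_W. Flower and seed markers summed to under 1 CPM in every library. The part of any of these in the results was not tested, and in whole leaves more cells of a type and more RNA per cell cannot be told apart.

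The challenge moved few of these genes. In plants with JA history (JA_JA against JA_W) LHCB1.4 and PSBW rose and RBCS1B fell, 3 of 43 genes, at 31.9% over all genes (15.4% higher, 16.5% lower). Without overlap were 4 genes higher and 1 lower in JA_JA, at shares over all genes of 16.2% and 17.3%. DESeq2 called 5 genes higher in the same comparison and a fit of its 8 libraries alone called 4, and edgeR called 5 without W_W replicate 4, W_JA replicate 1 or JA_JA replicate 1. In water-history plants (W_JA against W_W) none of the 43 genes passed the edgeR test, at 26.8% over all genes (13.9% higher, 12.9% lower). There 0 genes reached an unadjusted p below 0.05, DESeq2 also made 0 calls, and the smallest adjusted p was that of PSAG, -0.24 ± 0.13, adjusted p = 0.188. PSBS passed as higher without W_W replicate 4 (0.45), and PSAG as lower without W_JA replicate 1 (-0.37). In that comparison 26 of 43 genes had a positive log2 change with TMM scaling, but 8 of 43 with library totals alone, so its direction depends on the scaling. Each group enters 2 of the 4 comparisons, so the values of a challenge comparison and of a history comparison share libraries and are not independent.

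Whether the response to challenge differed with history was tested as an interaction, JA_JA minus JA_W from which W_JA minus W_W was subtracted (log2). It passed for 2 of 43 genes, at 18.4% of all genes: LHCB1.4 was positive (1.07 ± 0.29, adjusted p = 0.0172) and RBCS1B negative (-1.21 ± 0.23, adjusted p = 0.00248). Over all genes 8.01% were positive and 10.4% negative. For the other 41 genes a difference in response was not detectable at this replication, which does not show that they responded alike.

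**Figure D2:**
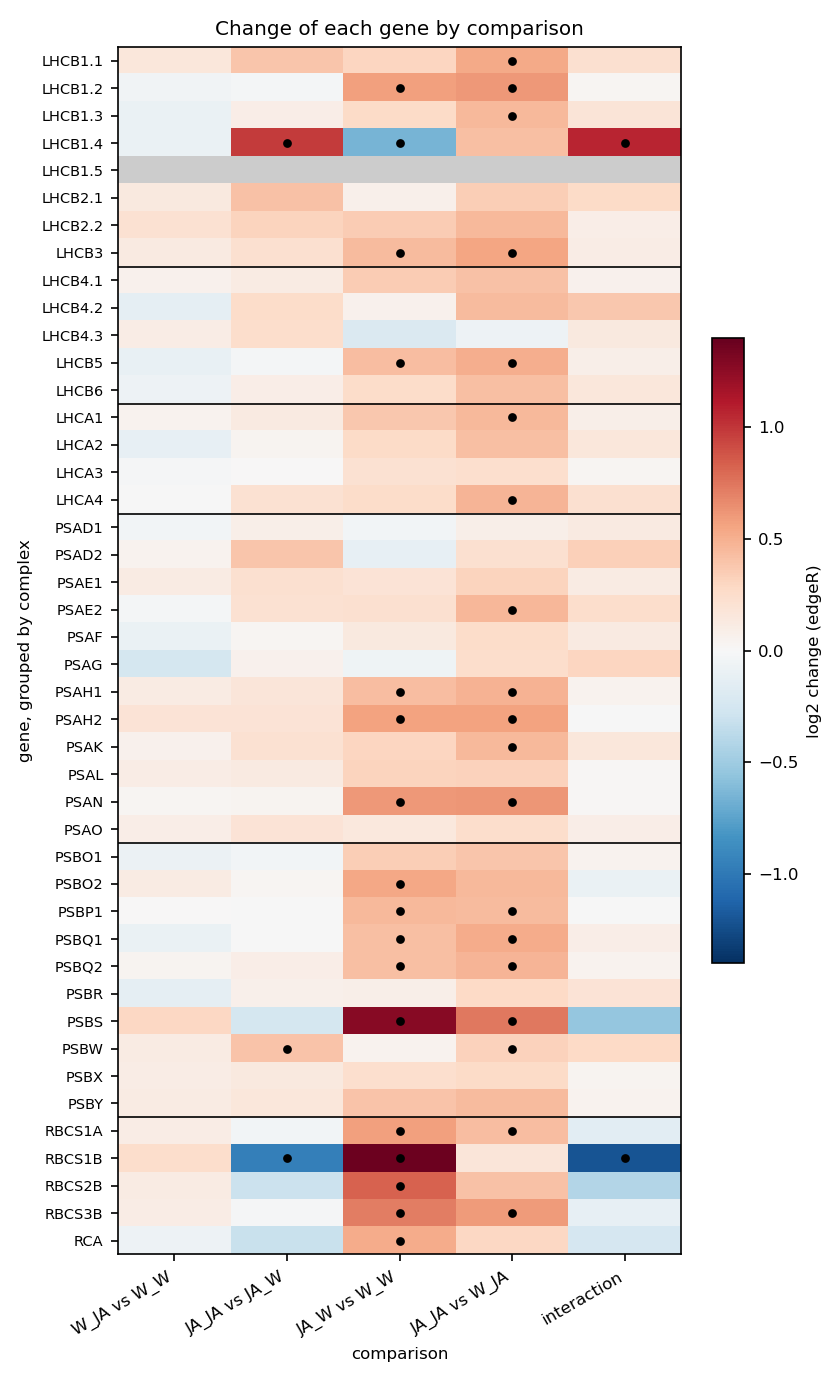
Log2 change of each of the 44 genes (rows, grouped by complex) in the 4 comparisons and the interaction (columns), red for higher and blue for lower in the group named first. Black dots mark an adjusted p below 0.05 and grey marks LHCB1.5, which had 0 reads. The history columns are mostly red, and LHCB1.4 and RBCS1B carry dots of opposite colour in JA_W against W_W and in JA_JA against JA_W.

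LHCB1, LHCB2 and LHCB3 (AT5G54270) form the trimers of LHCII, the most abundant antenna of thylakoid membranes. The 5 LHCB1 genes lie in 2 clusters, LHCB1.1 (AT1G29920) to LHCB1.3 (AT1G29930) on chromosome 1 and LHCB1.4 (AT2G34430) with LHCB1.5 on chromosome 2 (chr2:14524607-14525918 and chr2:14522524-14523568, TAIR10.1). Their coding ends are shown because reads of 50 bases from such copies can be hard to place. These are the last 90 coding bases, stop codon included, from the RefSeq TAIR10.1 genome, with capitals where a copy differs from LHCB1.3.
LHCB1.3: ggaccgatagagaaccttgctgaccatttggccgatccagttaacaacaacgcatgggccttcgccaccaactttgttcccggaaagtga
LHCB1.1: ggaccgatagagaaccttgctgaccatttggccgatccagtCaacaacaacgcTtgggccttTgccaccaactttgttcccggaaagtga
LHCB1.2: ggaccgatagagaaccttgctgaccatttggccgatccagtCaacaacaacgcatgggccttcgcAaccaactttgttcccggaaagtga
LHCB1.4: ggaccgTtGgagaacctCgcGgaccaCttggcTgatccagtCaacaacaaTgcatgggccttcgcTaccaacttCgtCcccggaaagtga
LHCB1.5: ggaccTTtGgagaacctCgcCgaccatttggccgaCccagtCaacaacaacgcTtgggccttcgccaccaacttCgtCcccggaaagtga

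LHCB1.1 and LHCB1.2 (AT1G29910) differ from LHCB1.3 at 3 and 2 of these bases, and LHCB1.4 and LHCB1.5 at 11 and 10. Over whole transcripts 79.5% of the 50-base windows of LHCB1.1, 89.4% of LHCB1.2, 83.0% of LHCB1.3 and 86.3% of LHCB1.4 occur at 1 place only. Per kb of exon LHCB1.3 was the second most abundant of all genes in every group, after RBCS1A (AT1G67090), among 32548 genes with a known length. Its levels were 10841, 13197, 14536 and 12720.2 CPM in JA_JA, 10074, 12860.3, 12215 and 12989 CPM in JA_W, 11427, 8815, 9210.3 and 8007 CPM in W_JA and 10004, 8317, 9017 and 12639.8 CPM in W_W, with JA_JA and W_JA overlapping and JA_W and W_W overlapping.

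LHCB1.4 was the one gene of the set that fell with history. Its levels were 3392, 4505, 4936 and 3956 CPM in JA_JA, 1740.4, 2007, 2363 and 2427 CPM in JA_W, 4286, 3262, 2723 and 2268 CPM in W_JA and 3644, 2459, 2948 and 4306 CPM in W_W. The JA_W libraries lay below all of JA_JA and W_W and overlapped W_JA only through its lowest library. It fell with JA history in the absence of challenge (-0.65 ± 0.20, adjusted p = 0.0105) and rose with challenge in JA-history plants (0.98 ± 0.20, adjusted p = 0.0016). In water-history plants the challenge change was -0.09 ± 0.20, adjusted p = 0.79, and under challenge the history change was 0.42 ± 0.20, adjusted p = 0.108. Without both W_W replicate 4 and JA_W replicate 1 the fall no longer passed (history without challenge: LHCB1.4 at -0.41).

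LHCB1.2 moved the other way with history in the absence of challenge. Its levels were 4408, 5874, 6230.1 and 5236 CPM in JA_JA, 4735, 5978, 5551 and 5842 CPM in JA_W, 4382, 3528, 3557 and 2817 CPM in W_JA and 3341, 3008, 3420.2 and 5026 CPM in W_W, and it rose without challenge (0.58 ± 0.17, adjusted p = 0.00732) and under challenge (0.61 ± 0.17, adjusted p = 0.011). JA_JA lay above W_JA in all libraries, and JA_W overlapped W_W through W_W replicate 4. LHCB3, which enters trimers together with other LHCB proteins, rose as well in both (0.45 ± 0.16, adjusted p = 0.0188 without challenge and 0.55 ± 0.16, adjusted p = 0.0109 under it). LHCB1.1 and LHCB1.3 passed under challenge (0.53 ± 0.16, adjusted p = 0.0133 and 0.45 ± 0.16, adjusted p = 0.0295), with changes of 0.30 ± 0.15 and 0.27 ± 0.16 without it. With LHCB1.1 to LHCB1.3 counted as 1 gene the change was 0.50 (adjusted p = 0.0208) under challenge and 0.35 (adjusted p = 0.0699) without, both by edgeR. LHCB2.1 (AT2G05100) and LHCB2.2 (AT2G05070), whose proteins take part in state transitions, passed in no comparison. LHCB2.2, the major antenna gene with the smallest p for challenge in water-history plants, had 3006, 2215, 1872 and 1903 CPM in W_JA, against 1995, 1413, 1627 and 2727 CPM in W_W, with overlapping groups (0.21 ± 0.20, adjusted p = 0.474).

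Minor antenna proteins link the LHCII trimers to the photosystem II core. LHCB5 (AT4G10340), also known as CP26, was the member of this class with the highest level per kb and the one that passed. It had 5729.7, 7038, 7508 and 5977 CPM in JA_JA, 5831, 6954, 6829 and 7163 CPM in JA_W, 6027, 4545, 3957 and 3867 CPM in W_JA and 4646, 4153, 4488 and 6537 CPM in W_W. History changed it by 0.43 ± 0.17, adjusted p = 0.0321 without challenge and 0.51 ± 0.17, adjusted p = 0.0233 under it, with overlapping groups in both. The call without challenge was lost in 9 of 16 fits that each left out 1 library, and the call under challenge in 5 of 16. LHCB4.1 (AT5G01530), LHCB4.2 (AT3G08940) and LHCB6 (AT1G15820) passed in no comparison. LHCB4.2 had 2353, 2880.3, 3181 and 2539.5 CPM in JA_JA, 2004, 2311, 2455 and 2409 CPM in JA_W, 2795, 2080.3, 1635 and 1540.3 CPM in W_JA and 2159, 1680.1, 2024 and 2922 CPM in W_W, with all groups overlapping, and its interaction was 0.38 ± 0.27, adjusted p = 0.343.

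LHCB4.3 (AT2G40100) stood far below the other 42 genes tested. Per kb of exon it averaged 11.0 ± 1.79 CPM in JA_JA, 9.33 ± 2.15 CPM in JA_W, 11.6 ± 1.89 CPM in W_JA and 10.8 ± 1.78 CPM in W_W, and LHCB4.1, of the same family, averaged 3979 ± 466 CPM in JA_JA, 3677 ± 386 CPM in JA_W, 3001 ± 617 CPM in W_JA and 2881 ± 518 CPM in W_W (SD, n = 4 each). Single libraries of LHCB4.3 read 13.5, 15.7, 19.6 and 15.2 CPM in JA_JA, 8.96, 14.8, 14.3 and 16.0 CPM in JA_W, 20.6, 16.8, 14.4 and 15.3 CPM in W_JA and 11.8, 16.9, 16.2 and 17.4 CPM in W_W. Its change with challenge in JA-history plants was 0.24 ± 0.17, adjusted p = 0.311, and with history without challenge it was -0.21 ± 0.17, adjusted p = 0.312.

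LHCA1 (AT3G54890) to LHCA4 (AT3G47470) form the antenna belt of photosystem I. LHCA4, which pairs with LHCA1, was the most abundant of them per kb, at 8526, 9792, 10348 and 8539 CPM in JA_JA, 6857, 8398, 8093 and 8714 CPM in JA_W, 8300.0, 6671, 5889.6 and 5876 CPM in W_JA and 6565, 5762, 6343 and 8196 CPM in W_W. JA_JA lay above W_JA in every library, and history under challenge raised it (0.48 ± 0.15, adjusted p = 0.0162). Its change with challenge in JA-history plants was 0.21 ± 0.15, adjusted p = 0.28, and its interaction was 0.22 ± 0.21, adjusted p = 0.487. LHCA1 had 5671, 7396, 8134 and 7234 CPM in JA_JA, 5289, 6943, 6967 and 6839.6 CPM in JA_W, 6157, 4824, 5939 and 3833 CPM in W_JA and 4826, 4179, 4635 and 6478 CPM in W_W and rose under challenge by 0.45 ± 0.18, adjusted p = 0.0482, a call lost in 10 of the 16 fits that left out 1 library, and its change without challenge was 0.37 ± 0.18, adjusted p = 0.072. LHCA2 (AT3G61470) and LHCA3 (AT1G61520) passed in no comparison. For challenge in water-history plants the smallest p of the class was that of LHCA2, at 3438, 2632, 2053 and 2335 CPM in W_JA, against 2807, 2264, 2516 and 3771 CPM in W_W (-0.12 ± 0.18, adjusted p = 0.684), with overlapping groups.

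Genes of several positions in photosystem I rose with history. PSAN (AT5G64040), a lumen-side subunit that helps plastocyanin to bind, rose most with history. Its levels were 1895, 2331, 2479 and 2132 CPM in JA_JA, 1939, 2229, 2218 and 2199.7 CPM in JA_W, 1768, 1458, 1438 and 1073 CPM in W_JA and 1264, 1273, 1256 and 1852 CPM in W_W, and the changes were 0.60 ± 0.16, adjusted p = 0.00284 without challenge and 0.62 ± 0.16, adjusted p = 0.00532 under it. JA_W lay above W_W and JA_JA above W_JA in every library. PSAH2 (AT1G52230), a subunit at the site where LHCII docks, rose by 0.56 ± 0.14 and 0.56 ± 0.14, and its copy PSAH1 (AT3G16140) by 0.43 ± 0.14 and 0.49 ± 0.14 (adjusted p = 0.00208, 0.00505, 0.0144 and 0.0136). Counted as 1 gene, PSAH1 and PSAH2 rose by 0.52 and 0.54. Under challenge the antenna-binding subunit gene PSAK (AT1G30380) rose too (0.45 ± 0.14, adjusted p = 0.014), as did PSAE2 (AT2G20260) of the ferredoxin side (0.47 ± 0.15, adjusted p = 0.0224).

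PSAF (AT1G31330), which binds plastocyanin, had the highest level per kb of the class, at 4474, 5797, 5733 and 5715 CPM in JA_JA, 4924, 5459, 5572 and 5378 CPM in JA_W, 5550.2, 4299, 4998 and 3383 CPM in W_JA and 4577, 4011, 4552 and 6332 CPM in W_W, and passed in no comparison. PSAD1 (AT4G02770), PSAD2 (AT1G03130), PSAE1 (AT4G28750), PSAG (AT1G55670), PSAL (AT4G12800) and PSAO (AT1G08380) also passed in none. PSAD2, a ferredoxin-docking subunit, came nearest for challenge in JA-history plants, with 2116, 2576, 2475 and 2611 CPM in JA_JA, against 1629.6, 1791, 2067 and 1970.2 CPM in JA_W. These groups did not overlap, and the change was 0.39 ± 0.15, adjusted p = 0.0589. It passed without JA_JA replicate 1, W_JA replicate 1, 3 or 4, or W_W replicate 4. PSAG had 553, 634, 549.6 and 512 CPM in JA_JA, 527, 595, 510.0 and 519.5 CPM in JA_W, 579, 491, 479 and 351 CPM in W_JA and 487, 603, 575 and 584 CPM in W_W, all overlapping, with a change of -0.24 ± 0.13, adjusted p = 0.188 in water-history plants. With challenge in JA-history plants all 12 photosystem I genes had a positive log2 change (median 0.18), which with library totals alone held for 8 of 12.

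The largest called changes in photosystem II were those of PSBS (AT1G44575), which encodes the protein that switches on the harmless loss of excess light energy as heat. Its levels were 1835, 2551, 2583 and 2453 CPM in JA_JA, 2262, 3196, 2814 and 2903 CPM in JA_W, 1577, 1315, 1551 and 1196 CPM in W_JA and 917, 1026, 1158 and 1502 CPM in W_W. All JA_W libraries lay above all W_W libraries, and all JA_JA libraries above all W_JA libraries. PSBS rose by 1.28 ± 0.17, adjusted p = 4.94e-06 without challenge and by 0.74 ± 0.16, adjusted p = 0.00228 under it, and its interaction was -0.54 ± 0.23, adjusted p = 0.113. Without W_W replicate 4 the interaction passed, at -0.69.

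The oxygen-evolving proteins PSBO, PSBP and PSBQ cap the water-splitting site from the lumen. PSBQ1 (AT4G21280), PSBQ2 (AT4G05180) and PSBP1 (AT1G06680) rose in both history comparisons, by 0.42 to 0.46 without challenge and 0.45 to 0.52 under it on the log2 scale. PSBO2 (AT3G50820) rose without challenge (0.54 ± 0.18, adjusted p = 0.0148), and the change of PSBO1 (AT5G66570) was 0.34 ± 0.16, adjusted p = 0.0709. PSBW (AT2G30570), a small subunit that holds supercomplexes together, had 2571, 2759, 2944 and 2561 CPM in JA_JA, 1965, 2056, 2087 and 2119 CPM in JA_W, 2415, 2179, 2291 and 1761 CPM in W_JA and 1840.3, 1928, 1818 and 2391 CPM in W_W. JA_JA was above JA_W and W_JA in every library, and PSBW rose with challenge in JA-history plants (0.40 ± 0.12, adjusted p = 0.0169) and with history under challenge (0.33 ± 0.12, adjusted p = 0.038). The second call was lost in 4 of 16 fits that left out 1 library. PSBR (AT1G79040), next to the oxygen-evolving site and highest per kb of the class, had 3442, 4253, 4656 and 4352 CPM in JA_JA, 3730.3, 4139.7, 4038 and 3949.5 CPM in JA_W, 3898, 3399.9, 3677 and 2822 CPM in W_JA and 3628, 3340.2, 3647 and 4395 CPM in W_W and passed in no comparison, like PSBX (AT2G06520) and PSBY (AT1G67740).

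**Figure D3:**
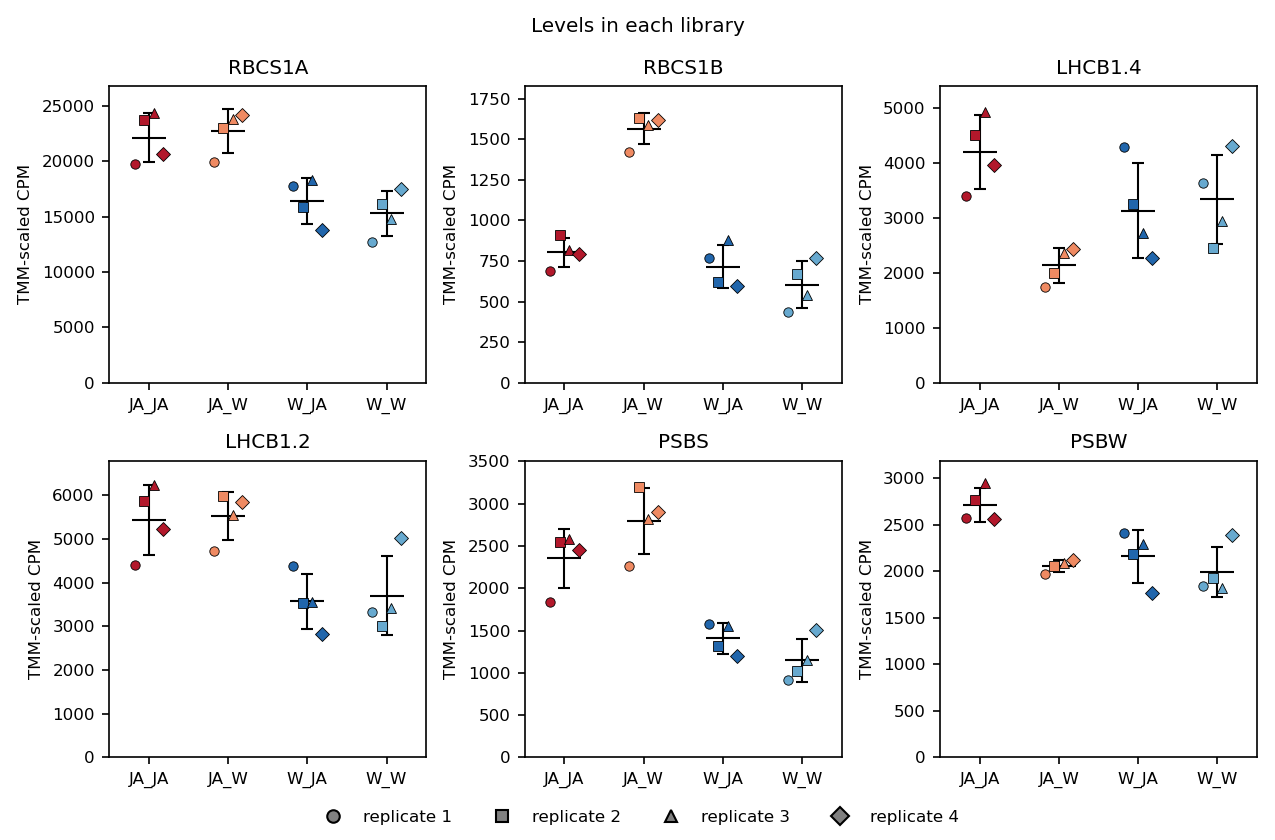
Level in each library (TMM-scaled CPM, axis from 0) of RBCS1A, RBCS1B, LHCB1.4, LHCB1.2, PSBS and PSBW in JA_JA, JA_W, W_JA and W_W, with the mean ± SD (n = 4). RBCS1B is highest and LHCB1.4 on average lowest in JA_W, PSBS is higher in both JA-history groups, and PSBW is highest in JA_JA.

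Rubisco small subunits come from RBCS1A on chromosome 1 and from RBCS1B (AT5G38430), RBCS2B (AT5G38420) and RBCS3B (AT5G38410) in a row on chromosome 5 (chr5:15383167-15385320, chr5:15380907-15382071 and chr5:15376988-15378642, all on the minus strand, TAIR10.1). The last 90 coding bases of the 3 neighbours, from RefSeq TAIR10.1, are shown because they bear on how well the reads of each can be told apart. Capitals mark differences from RBCS3B.
RBCS3B: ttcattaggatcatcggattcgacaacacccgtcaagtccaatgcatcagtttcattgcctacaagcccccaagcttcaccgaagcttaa
RBCS2B: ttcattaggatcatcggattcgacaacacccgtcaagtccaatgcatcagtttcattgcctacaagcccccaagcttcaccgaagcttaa
RBCS1B: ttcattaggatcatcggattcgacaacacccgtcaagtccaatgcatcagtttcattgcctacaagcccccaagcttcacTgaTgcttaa

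RBCS2B is identical to RBCS3B here and RBCS1B differs at 2 bases. Of their 50-base windows over the whole transcript, 86.1% were unique for RBCS1B, 78.6% for RBCS2B, 85.4% for RBCS3B and 98.6% for RBCS1A. RBCS1A was the most abundant gene per kb in every group, at 19769, 23685, 24298 and 20675 CPM in JA_JA, 19889.6, 22999.5, 23815 and 24160.3 CPM in JA_W, 17769.6, 15850.1, 18288 and 13742 CPM in W_JA and 12658, 16169, 14793 and 17485 CPM in W_W. JA_W was above W_W and JA_JA above W_JA in every library. RBCS1A rose with history by 0.57 ± 0.14, adjusted p = 0.00171 without challenge and by 0.43 ± 0.14, adjusted p = 0.0214 under it, the second of which was lost in 4 of 16 fits that left out 1 library.

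RBCS1B set JA_W apart from the other 3 groups. It had 691, 912, 819 and 794 CPM in JA_JA, 1423, 1631, 1589 and 1621 CPM in JA_W, 766, 620.1, 878 and 593 CPM in W_JA and 436, 672, 539 and 766 CPM in W_W. All 4 JA_W libraries lay above every other library of the experiment. With history it rose by 1.38 ± 0.17, adjusted p = 2.25e-06 without challenge, and with challenge in JA-history plants it fell by 0.96 ± 0.16 on the log2 scale, 1.95-fold (adjusted p = 0.000267). Its challenge change in water-history plants was 0.24 ± 0.16, adjusted p = 0.296, and its history change under challenge was 0.17 ± 0.16, adjusted p = 0.423. The fall and the interaction belong to the gene counted by itself. With RBCS1B, RBCS2B and RBCS3B counted as 1 gene, edgeR gave -0.27 with adjusted p = 0.257 for challenge in JA-history plants and -0.40 with adjusted p = 0.279 for the interaction, so neither passed.

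The summed set still rose with history, by 0.88 (adjusted p = 0.000373, edgeR) without challenge and 0.48 (adjusted p = 0.041, edgeR) under it. RBCS3B alone had 2668, 3526, 3803 and 2837 CPM in JA_JA, 2654, 3397, 3299 and 3651 CPM in JA_W, 2389.8, 1827, 2573 and 1692 CPM in W_JA and 1628, 1941, 1891 and 2458 CPM in W_W, without overlap between histories, and rose by 0.72 ± 0.17, adjusted p = 0.00144 and 0.60 ± 0.17, adjusted p = 0.0108. RBCS2B rose without challenge (0.83 ± 0.21, adjusted p = 0.00239), with a change of 0.41 ± 0.21, adjusted p = 0.125 under it. RCA (AT2G39730), which encodes the activase that frees Rubisco of inhibiting sugars, rose without challenge (0.52 ± 0.17, adjusted p = 0.0122). The log2 changes of these 5 genes with challenge in JA-history plants were all below 0, median -0.30, with TMM scaling and under the other scalings, filters and DESeq2, and with TMM scaling only RBCS1B passed.

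Because the share of a copy within its family does not depend on the scaling of libraries, it was taken as a second view, added after the levels had been seen. RBCS1B made up 2.67% to 3.10% of RBCS reads in JA_JA, 5.17% to 5.58% in JA_W, 3.22% to 3.78% in W_JA and 2.79% to 3.46% in W_W. Its JA_W share lay apart from all other groups. LHCB1.4 made up 14.3% to 15.2% of LHCB1 reads in JA_JA, 7.82% to 9.56% in JA_W, 13.7% to 17.2% in W_JA and 14.6% to 17.8% in W_W, again with JA_W apart and here below. LHCB1.2 held 18.7% to 19.7% in JA_JA, 22.2% to 23.5% in JA_W, 17.0% to 18.2% in W_JA and 16.3% to 18.9% in W_W.

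The share of LHCB1.1 did not overlap between challenge and water in either history: it held 20.7% to 21.0% in JA_JA against 17.8% to 19.2% in JA_W, and 19.4% to 21.2% in W_JA against 17.0% to 18.6% in W_W, differences of 2.25 and 2.67 percentage points. Its TMM-scaled level passed with challenge in neither history (0.39 ± 0.15, adjusted p = 0.0648 and 0.16 ± 0.15, adjusted p = 0.486). The 15 shares in 4 comparisons gave 60 exact two-sided permutation tests. With 4 libraries against 4 the smallest exact p is 0.0286, which the differences of LHCB1.1 by challenge, and those of RBCS1B, LHCB1.4 and LHCB1.2 between JA_W and either JA_JA or W_W, all reached. So did RBCS1A and LHCB4.1 in both JA_W comparisons, RBCS2B, LHCB1.3 and PSAD1 against JA_JA, and LHCB2.1 and PSBO1 against W_W. PSBO1 reached it in W_JA against W_W, and RBCS1B, LHCB1.2 and PSAD1 in JA_JA against W_JA. Reaching this value is thus not particular to the copies described above. The smallest adjusted p was 0.0816 over the 60, so none passed after adjustment. With 0.0286 as the smallest exact p, a pass would have needed most of the 60 tests to reach that value together. Shares of copies within a family also depend on each other, as they add up to the whole of the copies counted. LHCB2.3 and LHCB4.3 were not counted in the shares of LHCB2 and LHCB4. The adjusted values therefore cannot decide whether the share of any given copy differed.

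**Figure D4:**
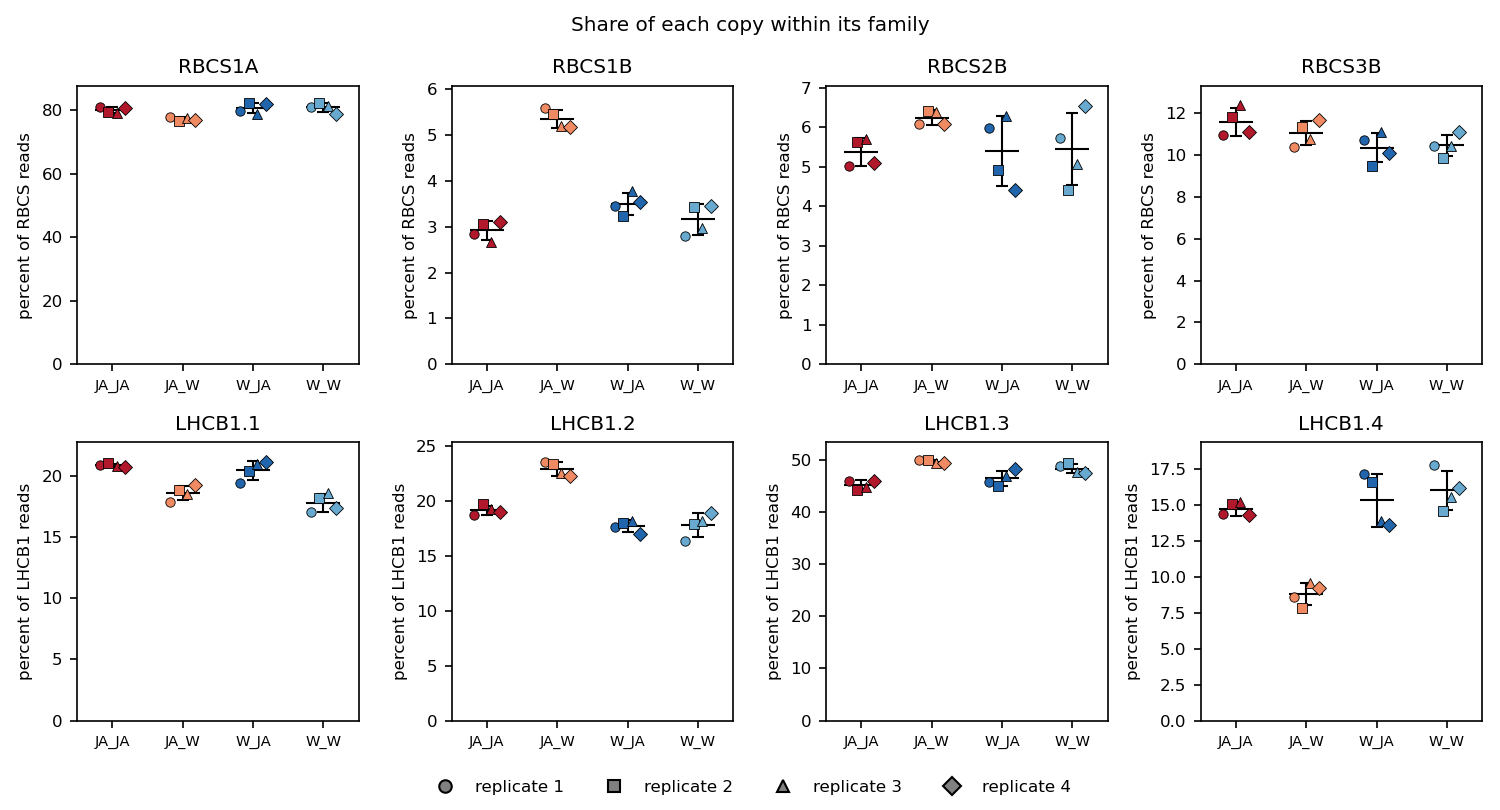
Share (percent, axis from 0) of RBCS reads taken by each RBCS gene and of LHCB1 reads taken by each LHCB1 gene with reads, in JA_JA, JA_W, W_JA and W_W. Points are libraries and bars the mean ± SD (n = 4). In JA_W the share of RBCS1B is 5.17% to 5.58% and that of LHCB1.4 is 7.82% to 9.56%, both apart from the other 3 groups.

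Genes around these complexes were counted by lists of the same pathway, beside which 33.8% of all genes were higher in JA_W than in W_W (64.9% in either direction). Of 8 further antenna and photosystem genes, 5 passed with history without challenge, all as higher, among them the assembly factor gene PSB28 (1.46 ± 0.19, adjusted p = 4.68e-06), LHCB7 (0.77 ± 0.09), LHCA6 (0.75 ± 0.20) and LHCA5 (0.70 ± 0.12). The 3 light-stress relatives of the antenna all rose: ELIP2 by 2.3 ± 0.37, ELIP1 by 1.38 ± 0.22 and OHP1 by 0.57 ± 0.11. Of 11 electron transport and ATP synthase genes 9 passed, all as higher, with the ferredoxin gene FD2 at 1.03 ± 0.15 and ATPD at 0.85 ± 0.14. Of 16 Calvin-Benson cycle genes 13 passed, all as higher, led by the aldolase FBA1 (1.29 ± 0.21), SBPASE (1.17 ± 0.17) and GAPB (1.16 ± 0.16). Of 7 thylakoid targeting and regulation genes 5 passed as higher, among them PGRL1A (0.76 ± 0.14) and CPSRP54 (0.75 ± 0.18). The medians of the first 4 lists were 0.53, 1.38, 0.57 and 0.74 on the log2 scale, against 0.32 for the 43 genes and 0.05 for all genes. Under challenge, where 18.9% of all genes were higher in JA_JA than in W_JA, the genes that rose were 6 of the 8 further antenna and photosystem genes, 1 of the 3 light-stress genes, 9 of 11 for electron transport, 8 of 16 for the Calvin-Benson cycle and 5 of 7 for thylakoid targeting and regulation. The medians of the same first 4 lists were then 0.54, 0.51, 0.44 and 0.40, against 0.01 for all genes. Nothing particular to any list is read from these counts.

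With challenge in JA-history plants 5 of the 16 Calvin-Benson genes passed, all as lower (median -0.28). Over all genes 16.5% passed as lower and 31.9% in either direction, and nothing particular to this list is read from the count. The 5 genes were FBA2 (-0.58 ± 0.17), PGK2 (-0.56 ± 0.11), GAPB (-0.54 ± 0.16), SBPASE (-0.52 ± 0.17) and RPI3 (-0.45 ± 0.13). In water-history plants 1 of 16 passed, CP12-2, as higher (0.58 ± 0.12). Among 6 light regulators 3 had an interaction that passed, the GATA factors GNC (-1.06 ± 0.15, adjusted p = 0.000358), GNL (-2.16 ± 0.39, adjusted p = 0.00191) and the light signalling factor HY5 (-1.02 ± 0.28, adjusted p = 0.0204). Over all genes the interaction passed for 18.4%, 10.4% as negative. With history, 4 of the 6 regulators passed without challenge, all as higher, GNC among them (0.81 ± 0.10), while under challenge 3 passed, all as lower: HYH (-0.77 ± 0.24), GLK1 (-0.40 ± 0.12) and GNL (-0.91 ± 0.28), where 21.2% of all genes were lower. With challenge in JA-history plants 2 of the 6 regulators passed, both as lower, GNC among them (-1.04 ± 0.11), beside 16.5% of all genes. The lowest log2 change of the 6 was -1.73. In water-history plants 2 of 6 passed, both as higher, beside 13.9% of all genes. Plastid-encoded partners such as rbcL and psbA were summed at 26.3 to 93.9 CPM in these poly(A)-selected libraries, and are not read further.

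Promoters of the chromosome 5 neighbours are printed because RBCS1B, RBCS2B and RBCS3B all rose with history without challenge, and RBCS3B also under it. These are the 250 bases before the annotated start on the gene's strand (RefSeq TAIR10.1, minus strand, chr5:15378643-15378892 for RBCS3B, chr5:15382072-15382321 for RBCS2B and chr5:15385321-15385570 for RBCS1B). Capitals mark the G-box CACGTG and the I-box GATAAG, both searched on either strand, so that CTTATC is an I-box of the other strand.
RBCS3B: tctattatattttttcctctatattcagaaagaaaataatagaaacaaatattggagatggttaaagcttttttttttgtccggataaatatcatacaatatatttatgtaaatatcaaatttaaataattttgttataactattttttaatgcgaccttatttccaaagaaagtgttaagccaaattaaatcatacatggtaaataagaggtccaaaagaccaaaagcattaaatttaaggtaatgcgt
RBCS2B: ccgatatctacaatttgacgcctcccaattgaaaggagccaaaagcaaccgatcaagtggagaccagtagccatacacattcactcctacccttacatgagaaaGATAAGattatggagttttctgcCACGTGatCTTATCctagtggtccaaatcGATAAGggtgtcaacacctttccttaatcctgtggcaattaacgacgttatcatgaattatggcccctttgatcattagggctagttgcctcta
RBCS1B: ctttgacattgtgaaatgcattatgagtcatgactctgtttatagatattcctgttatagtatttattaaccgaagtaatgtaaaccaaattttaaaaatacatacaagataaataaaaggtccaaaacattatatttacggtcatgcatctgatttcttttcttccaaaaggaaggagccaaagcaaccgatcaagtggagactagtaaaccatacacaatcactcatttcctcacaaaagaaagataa

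RBCS2B holds 1 G-box, 118 bases before the start, and 3 I-boxes, 89, 110 and 141 bases before it. No match of either was found in this window of RBCS1B or RBCS3B. The windows depend on the annotated starts, which may not correspond. Exon bases number 1894 in RBCS1B and 1410 in RBCS3B, against 935 in RBCS2B, for 546, 561 and 546 coding bases. The end of the RBCS1B window resembles the stretch of RBCS2B that leads into its first I-box. A difference in boxes between the copies is therefore not read from these windows. Both motifs are known from light-regulated leaf promoters. Of the 44 genes 18.2% held a G-box in these 250 bases, against 6.49% of 27443 genes, and 25.0% held an I-box, against 12.3%. The letters CCAATC were in 25.0% against 10.2% and GATAA, which every I-box contains, in 77.3% against 54.9%. In the 500 bases before the start codon, a window added after these values were seen, the G-box share was 50.0% against 9.34% and the I-box share 72.7% against 23.5%. A match is a run of letters and no measure of binding. LHCB1.4 and PSBS held neither box in the shorter window.

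Over the 16 fits that each left out 1 library, the rises numbered 11 to 32 without challenge and 9 to 33 under it. PSBS stayed between 1.19 and 1.43 without challenge, RBCS1B between 1.25 and 1.51, and LHCB1.4 between -0.77 and -0.50 on the log2 scale, and each passed in all 16. The interactions of LHCB1.4 (0.92 to 1.3) and RBCS1B (-1.34 to -1.08) also passed in all 16. Without challenge LHCB5 was lost without JA_JA replicate 2, 3 or 4, JA_W replicate 2, 3 or 4, or W_W replicate 1, 2 or 3. Also lost were LHCB3, PSBO2, PSBP1 and PSBQ2 without W_W replicate 2 and LHCB3, PSBP1 and PSBQ2 without W_W replicate 3, and LHCA1 passed without JA_W replicate 1, W_JA replicate 4 or W_W replicate 4. Under challenge the calls lost were those of LHCB1.3, LHCB5, LHCA1, PSAE2, PSBP1, PSBW and RBCS1A without JA_JA replicate 2, and of LHCB1.3, LHCB5, LHCA1, LHCA4, PSAE2, PSBP1, PSBW and RBCS1A without JA_JA replicate 3. Without W_JA replicate 2 they were those of LHCB1.3, LHCB5, LHCA1, PSBP1, PSBW and RBCS1A, without W_JA replicate 3 those of LHCB1.3, LHCB5, PSAE2 and PSBP1, and without W_JA replicate 4 those of LHCB1.3, LHCB5, LHCA1, LHCA4, PSAE2, PSAK, PSBP1, PSBQ2, PSBW and RBCS1A. LHCA1 was also lost without JA_JA replicate 4, JA_W replicate 2, 3 or 4, or W_W replicate 1 or 3.

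**Figure D5:**
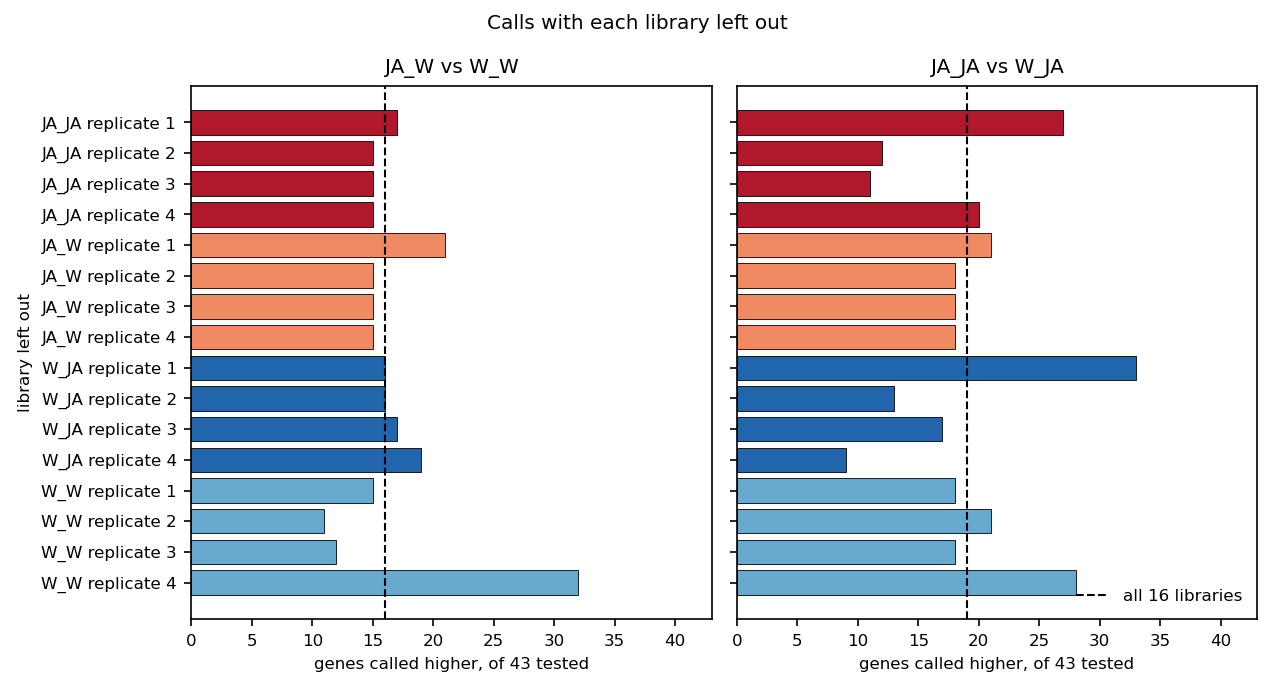
Number of the 43 genes tested that rose with history when each library was left out in turn, for JA_W against W_W (left) and JA_JA against W_JA (right). Bars start at 0 and the dashed line is the count with all 16 libraries, 16 and 19. Leaving out W_W replicate 4 gives 32 on the left, and leaving out W_JA replicate 1 gives 33 on the right.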

How the data were processed

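Leaf RNA from 16 libraries, 4 in each of 4 groups, was analysed from 1 deposited table per library. The authors deposited whole-number read counts per gene beside depth-scaled values (CPM), per the file headers. The CPM column matched the counts divided by library totals, and the tests used the counts. Per the submitters' processing notes, the tools were HTSeq 0.9.1, STAR 2.6.1b and Trimmomatic 0.38, with TAIR10 as genome build. Settings and strandedness are not given in the sources used here.

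Counts were analysed in R 4.3.3 with edgeR 4.0.16: filterByExpr by group (minimum count 10, minimum total 15), TMM scaling, 1 quasi-likelihood fit (robust) with a mean per group over all 16 libraries (12 residual degrees of freedom), and Benjamini-Hochberg adjustment over 19224 genes at 0.05. Groups came from sample titles. The biological coefficient of variation was 15.4%. Depth was 32190193 to 34319939 reads, and with 4 libraries a group the spread between pools, not counting error, limits the precision. DESeq2 1.42.0, other scalings and filters, a replicate block, fits of only the libraries compared, near-identical copies counted together and each library left out were the alternatives. Scripts were tested on simulated data.

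Members and lists were chosen with earlier results of these data known. The rule for named genes takes, within every complex and comparison, the called genes that changed most in each direction (else the gene of lowest p), plus the one of highest level per kb; other genes named were picked after their values were seen. Sequences, exon lengths and positions came from RefSeq TAIR10.1, where all 44 loci matched. Family shares, and the 500-base promoter window, were added after the data were seen.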

Additional observations from a re-analysis of the deposited data

Results flagged for a closer look

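Of 108 sets of 4 libraries (the tested genes named and the complexes, in each group) 11 held 1 library far from the other 3 by Dixon's 95% criterion, and chance marks about 1 in 20. JA_W replicate 1 was the lowest of its group for LHCA1 (5289 CPM, the other 3 at 6839.6 to 6967 CPM), LHCB2.2 (2076 CPM, the other 3 at 2590.2 to 2670.5 CPM) and PSAN (1939 CPM, the other 3 at 2199.7 to 2229 CPM). The same library was lowest in the share of reads from the 44 genes (15.3%, the other 3 at 17.1% to 17.3%), from the minor photosystem II antenna (1.55%, the other 3 at 1.72% to 1.75%), from the photosystem I antenna (1.94%, the other 3 at 2.21% to 2.26%) and from photosystem II (2.71%, the other 3 at 2.96% to 2.99%). W_W replicate 4 was the highest of its group for PSAN (1852 CPM, the other 3 at 1256 to 1273 CPM), for the 44 genes together (17.0%, the other 3 at 13.2% to 13.6%) and for photosystem I (2.98%, the other 3 at 2.37% to 2.42%). JA_JA replicate 1 was the lowest of its group for PSAF (4474 CPM, the other 3 at 5715 to 5797 CPM). What set these libraries apart was not tested.

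The change with challenge differed between histories, by the interaction term of edgeR, for LHCB1.4 (1.07 ± 0.29, adjusted p = 0.0172) and RBCS1B (-1.21 ± 0.23, adjusted p = 0.00248), both on the log2 scale.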

How the results depend on the processing

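With library totals in place of TMM the median of all genes tested moved by -0.12 (W_JA against W_W), -0.09 (JA_JA against JA_W), -0.12 (JA_W against W_W) and -0.09 (JA_JA against W_JA), and the share of calls that were higher became 30.9%, 32.1%, 42.4% and 32.7%, against 52.0%, 48.3%, 52.1% and 47.1% with TMM. Upper-quartile scaling gave 58.3% for JA_W against W_W and 59.9% for JA_JA against W_JA. In W_JA against W_W library totals called 1 member lower. In JA_JA against JA_W, 5 were higher with DESeq2 and 4 in the fit of the libraries compared, while 2 were lower with library totals and 0 with copies counted together. In JA_JA against W_JA 30 were higher with DESeq2 and 32 with upper-quartile scaling. The negative interaction was called for 0 with copies counted together. Leaving out each library in turn gave, as higher and lower, 0 to 1 and 0 to 1 in W_JA against W_W, 2 to 5 and 1 to 1 in JA_JA against JA_W, 11 to 32 and 1 to 1 in JA_W against W_W, 9 to 33 and 0 to 0 in JA_JA against W_JA, and 1 to 1 and 1 to 2 for the interaction, which passed for 2344 (without JA_W replicate 2) to 4407 of all genes, with 3539 from all libraries. Without both W_W replicate 4 and JA_W replicate 1 the counts were 1 higher in W_JA against W_W, 2 lower in JA_JA against JA_W, 31 higher and 0 lower in JA_W against W_W, 29 higher in JA_JA against W_JA and 2 negative interactions. In W_JA against W_W the changes of LHCB4.2 (-0.34 to 0.043) and LHCA2 (-0.29 to 0.049) turned positive without W_W replicate 4, and without both libraries (0.043 and 0.049). Promoter shares over 250 bases before and 50 after the start were 45.5% (I-box) and 90.9% (GATAA), and over 500 before the start codon 50.0% (G-box), 72.7% (I-box), 54.5% (CCAATC) and 97.7% (GATAA). The cause of these shifts was not tested.

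Replicate numbers did not pair the libraries: of 24 same-number pairs 5 had a correlation above 0.1 (range -0.33 to 0.34), and 2 of 16 libraries correlated best with their own number. With the replicate number as a block, 0 members passed in W_JA against W_W, 3 in JA_JA against JA_W, 16 in JA_W against W_W (without LHCB5), 15 in JA_JA against W_JA (without PSBP1, LHCB1.3, PSBW and LHCA1) and 2 in the interaction.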
